A study of Homo sapiens with 8 samples.

Results

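The comparison described here is between open chromatin in U-937 cells given all-trans retinoic acid (ATRA) together with Corin and in U-937 cells given Corin alone, so it shows what ATRA changed where Corin was present in every culture. U-937 is an established human leukaemia line of monocytic character. Cells of the Corin group received 0.1 µM Corin and cells of the combination group received 0.1 µM ATRA and 0.1 µM Corin, both for 24 h before ATAC-seq, an assay in which a transposase tags accessible DNA for sequencing. The other groups of the series received DMSO, the vehicle, or 0.1 µM ATRA alone for the same 24 h, and they serve only as a separate reading of ATRA without Corin. Each group had 2 samples, but the deposited peaks were a pooled list of each group, so 4 of the 8 samples enter as 1 list against 1 list. No value has a replicate error and no test was possible. A difference below is a difference between these lists, and a site open in fewer cells and a site less open in each cell cannot be told apart.

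Overlapping peaks were merged into regions. The combination list held 94917 regions and the Corin list 101851, which together formed 119781 union regions, out of 161291 over all 4 lists. A union region was called gained if only the combination list had it, lost if only the Corin list had it, and shared if both had it. All regions on the assembled chromosomes were kept, so none was removed for a low value.

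ATRA is a ligand of the retinoic acid receptors (RARs), which sit on DNA with retinoid X receptors (RXRs) at direct repeats of a short hexamer. Without ligand they hold corepressors at these sites, and with ligand they recruit coactivators. In myeloid leukaemia cells ATRA is known for driving differentiation, and genes for its own breakdown, storage and reception are among its classical direct targets. Corin is a hybrid inhibitor of the CoREST complex, a corepressor assembly that pairs the histone demethylase LSD1 with histone deacetylases. Myeloid enhancers are commonly occupied by PU.1, the C/EBP factors and RUNX1, and by AP-1, the dimers of FOS and JUN proteins that respond to growth and stress signals.

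Sequences from hg38 show the DNA on which the comparison turned. The first set holds 3 of the 10 strongest lost regions and, of the shared regions in the strongest 20% of a list, the 2 with the lowest combination over Corin value. They are shown because every region among those 10, and among the 10 lowest such shared regions, contains the AP-1 consensus TGANTCA, in capitals, within 100 bp of the summit. Each is the plus strand of a window around the match, named by the nearest protein-coding gene.
COBL, lost, intron, chr7:51123742-51123838: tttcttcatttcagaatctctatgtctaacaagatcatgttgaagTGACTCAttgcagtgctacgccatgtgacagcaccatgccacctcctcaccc
FOSL2, lost, intron of BABAM2, chr2:28276263-28276359: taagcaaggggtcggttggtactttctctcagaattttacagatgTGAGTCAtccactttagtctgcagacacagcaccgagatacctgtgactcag
CXCR4, lost, intergenic, chr2:136327650-136327746: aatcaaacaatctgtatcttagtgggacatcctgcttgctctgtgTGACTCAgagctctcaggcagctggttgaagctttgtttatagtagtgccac
LRRC17, shared and lower, intron of FBXL13, chr7:102876006-102876102: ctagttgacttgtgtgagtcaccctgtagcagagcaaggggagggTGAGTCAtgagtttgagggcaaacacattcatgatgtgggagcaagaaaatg
SMIM3, shared and lower, intron, chr5:150790401-150790497: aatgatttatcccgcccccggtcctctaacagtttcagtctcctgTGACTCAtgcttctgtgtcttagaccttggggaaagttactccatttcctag

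The second set holds gained or higher regions with a direct repeat of the retinoid receptor hexamer, in capitals, on either strand. In a DR5 the hexamers are 5 bases apart and in a DR2 they are 2 apart. The RARB match lay 105 bp from the summit, outside the window searched elsewhere, and was chosen after its values were seen. It is given with short flanks.
RARB, shared and higher, promoter, DR5, chr3:25428204-25428232: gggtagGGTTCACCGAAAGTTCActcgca
CYP26A1, gained, intergenic, DR5, chr10:93150395-93150501: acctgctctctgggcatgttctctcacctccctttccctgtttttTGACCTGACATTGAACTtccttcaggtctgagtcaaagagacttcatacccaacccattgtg
TGFA, gained, intron, DR5, chr2:70529822-70529928: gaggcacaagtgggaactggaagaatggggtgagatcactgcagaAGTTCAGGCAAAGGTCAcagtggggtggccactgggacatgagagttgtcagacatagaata
RORA, gained, intron, DR5, chr15:61085058-61085164: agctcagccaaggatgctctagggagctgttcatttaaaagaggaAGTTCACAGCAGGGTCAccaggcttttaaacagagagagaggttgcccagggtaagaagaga
ALDH1A2, shared and higher, intron, DR2, chr15:58282436-58282539: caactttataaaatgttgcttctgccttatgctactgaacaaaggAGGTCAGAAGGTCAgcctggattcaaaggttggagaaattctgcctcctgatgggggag

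The third set holds gained or higher regions with the PU.1 consensus GAGGAAGT, in capitals, or its complement.
AUH, gained, intron of LINC02937, chr9:91199904-91200001: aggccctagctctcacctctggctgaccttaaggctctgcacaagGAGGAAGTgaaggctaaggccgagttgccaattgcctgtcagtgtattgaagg
ADAR, shared and higher, intron, chr1:154623507-154623604: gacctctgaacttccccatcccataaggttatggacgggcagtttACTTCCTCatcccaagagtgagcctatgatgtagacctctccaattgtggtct

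Most regions were present with and without ATRA, and those called in 1 list alone were mostly weak. The shared regions numbered 74781, or 62.4% of the union. Gained regions numbered 19551 (16.3% of the union), and were 20.6% of the combination list (95% Wilson interval 20.3% to 20.9%, counting error over regions only). Lost regions numbered 25449 (21.2% of the union), and were 24.99% of the Corin list (interval 24.7% to 25.3%). Which of them were more numerous depended on the lists' length. With lists of equal length 20589 regions were gained and 19649 lost, and with peaks at a −log10 q of at least 5 the counts were 15214 and 14842. The median −log10 p of the peak caller was 11.01 for gained regions in the combination list and 7.22 for lost regions in the Corin list. For shared regions it was 117 with the combination and 91.9 with Corin. Of the gained regions 678 lay in the stronger 50% of the combination list by this p and 5 in its strongest 20%. Of the lost regions 1208 lay in the stronger 50% of the Corin list and 20 in its strongest 20%.

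The lists differed in their build. Regions of the combination list had a median width of 619 bp against 545 bp for Corin and held 2.08 against 1.86 peaks each. At 1528 union regions a combination region spanned several Corin regions, and the reverse was seen at 515. The most frequent background solved from the peaks was 13.9 and 13.1 reads. Read depth per sample is unknown. Promoters of 9 myeloid marker genes were open at 8 in the Corin list and at 7 in the combination list, with MPO closed in both and FCGR1A closed with the combination. Of 13 markers of other cell types 5 and 4 were open. Among them COL1A1, CD79A and NCAM1 were open in both lists, and CD3E, CD3D, MS4A1, HBB, ALAS2, EPCAM and ALB were at 0 in both.

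Gained and lost regions lay away from promoters. Within 1 kb of a transcription start were 11.8% of the gained, 12.6% of the lost and 25.7% of the shared regions. Introns held 52.7% of the gained and 52.1% of the lost regions. The protein-coding genes nearest to most gained regions were GPC5 (146 gained and 73 lost of 345 regions), SLITRK5 (111 and 69 of 273) and DAOA (58 and 73 of 190), all on chromosome 13 and all beside long stretches with few genes. Chromosome 13 also had the highest share of gained (23.5%) regions of the autosomes. Its lost share was 29.5%. Among the other genes with most gained regions were SPRY2, PTPRN2, FOXA2, DLGAP2, UQCRFS1, TSNARE1 and TLE3, with 28 to 45 each. Among the genes with most lost regions, the balance was uneven at IRS2, an adaptor of insulin signalling (36 lost, 8 gained). The others with most lost regions were SPRY2, SLC10A2, SLITRK6, SLC39A10 and TMEFF2, with 35 to 58 each.

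The 10 strongest gained regions were near KREMEN2, SAE1, AUH, TNFAIP2, TGFA, RAB11A, PIK3R3, NCOA3, PTH1R and TOP1. Each was also in the ATRA list, and 6 of the 10 were absent from the DMSO list. In the values that follow, fold is the authors' column 7, the peak over its local background. Within TGFA, which encodes a growth factor, the region chr2:70510112-70510890 had a fold of 3.89 with DMSO, 20.4 with ATRA, 17.3 with the combination and no peak with Corin. Within NCOA3, a coactivator that liganded nuclear receptors recruit, the region chr20:47531135-47532019 had 2.90, 21.3 and 15.7 in the same order and no peak with Corin. Within PIK3R3, a regulatory subunit of PI3-kinase, the region chr1:46069969-46071089 had 6.88, 21.0 and 14.3. The 3 regions were high in both lists with ATRA and low or absent in both lists without it.

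At SAE1, part of the SUMO-activating enzyme, the region chr19:47169555-47170611 had folds of 11.1 with ATRA and 16.2 with the combination, and no peak with DMSO or Corin. The PU.1 region chr9:91199738-91200269, whose nearest coding gene AUH starts 161961 bp away, had 10.3 and 12.7 and likewise no peak in the lists without ATRA. The region chr14:103118909-103119420, upstream of the known ATRA target TNFAIP2, had 5.87 and 4.48 and no peak without ATRA. Its local background was high, at 247 reads. The KREMEN2 region has an uncertain strength, since its p and fold contradict each other. Of these 10 regions, 5 lie on a background over 3 times the most frequent of the list.

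The 10 strongest lost regions were near COBL, FOSL2, SUCNR1, TG, CXCR4, ATG7, SLC1A2, ADGRF1, IL1RAP and LZTS1. All 10 held AP-1, against 1 of the 10 gained ones, and 9 of the 10 were in the DMSO list. Within COBL, an actin nucleator, the region chr7:51123537-51124202 had a fold of 19.1 with DMSO and 23.7 with Corin, and no peak in either list with ATRA. The region chr2:28276013-28276498, nearest to the AP-1 gene FOSL2 but 116530 bp from its start, had 3.33 and 12.4, and no peak with ATRA or the combination. Near CXCR4, a chemokine receptor, chr2:136327415-136327852 had 5.56 and 10.1, again with no peak in either list with ATRA. Within IL1RAP, an interleukin-1 receptor subunit, chr3:190585675-190586471 had 11.5 and 18.1 and none with ATRA. Exceptions were the ADGRF1 region, with 5.36 in the ATRA list, and the SUCNR1 region chr3:151976024-151976628, with 14.2 in the DMSO list, 3.56 in the ATRA list, 19.97 in the Corin list and none in the combination list.

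**Figure D1:**
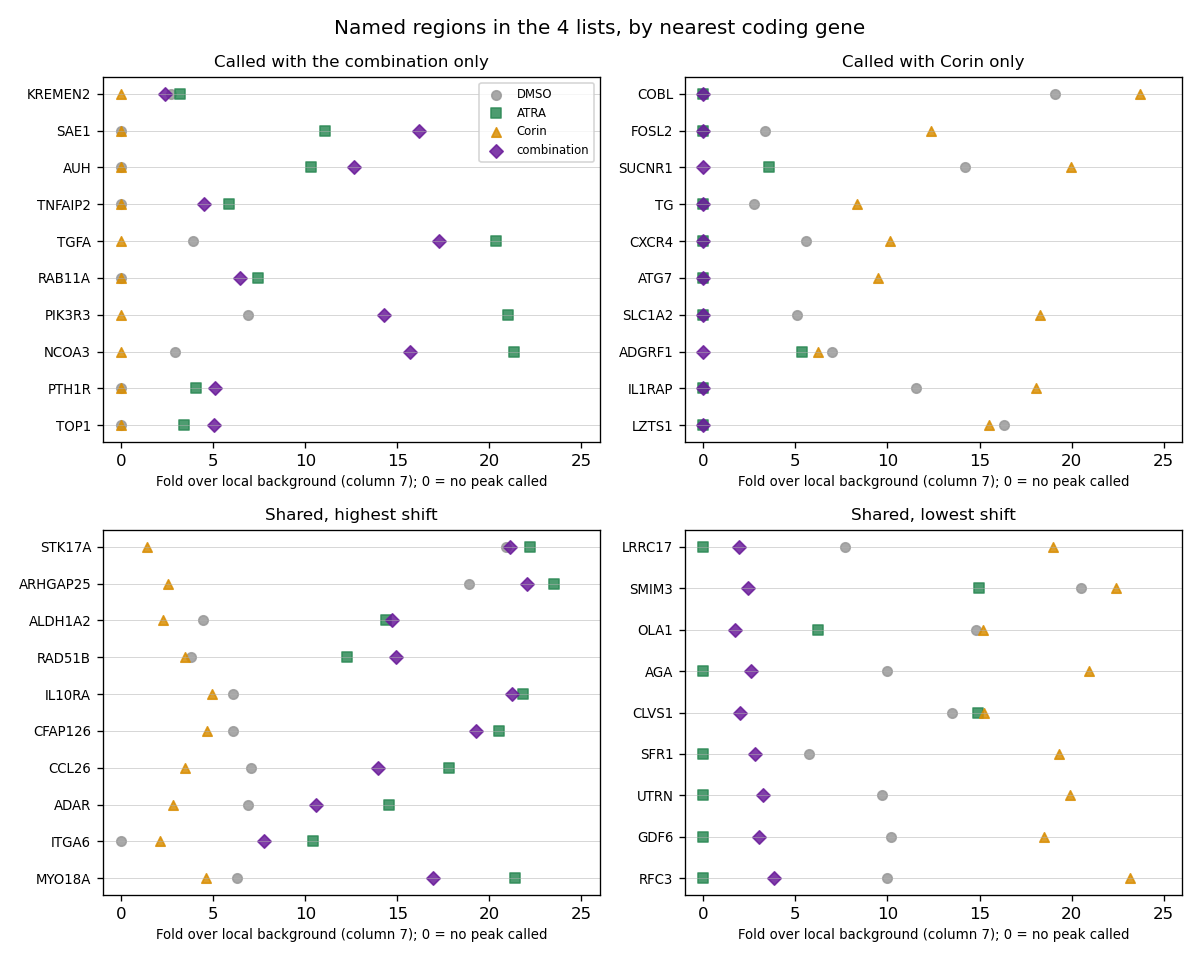
Column 7, the fold over local background, in the DMSO, ATRA, Corin and combination lists for the 10 strongest gained, 10 strongest lost, 10 highest and 9 of the 10 lowest shared regions, each named by the nearest coding gene. A point at 0 means that no peak was called there. In most rows ATRA and combination points lie together, away from the DMSO and Corin points, with exceptions such as STK17A and ARHGAP25, where Corin alone is low, and SMIM3 and CLVS1, where the combination alone is low.

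At shared regions column 7 was compared as log2 of the combination over Corin, minus the median over all of them, which was 0.10 (1.07-fold). This centred difference is called the shift. Its standard deviation over regions was 0.50, and 76.4% of regions lay within 0.5 of 0. Column 7 was at least 2-fold higher at 2282 regions (3.05%) and at least 2-fold lower at 2364 (3.16%), so 49.1% of the changed regions were higher. Without the centring that share was 62.3%, and with the solved pileup in place of column 7 it was 40.5%, so the balance of higher to lower depends on the scaling. Of the lower regions 377 were strong, meaning in the strongest 20% of at least 1 list, against 98 of the higher ones. The higher regions had a median fold of 9.52 with the combination and 3.54 with Corin. The lower ones had 3.75 and 9.25.

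The 10 strong regions with the highest shift were near STK17A, ARHGAP25, ALDH1A2, RAD51B, IL10RA, CFAP126, CCL26, ADAR, ITGA6 and MYO18A. ALDH1A2 makes retinoic acid from retinaldehyde. Its region chr15:58281986-58282791, which holds the DR2 printed above, had a fold of 4.44 with DMSO, 14.4 with ATRA, 2.26 with Corin and 14.7 with the combination, a shift of 2.60. The strongest summits of the Corin and combination lists there were 348 bp apart. Near IL10RA, the interleukin-10 receptor, chr11:117959409-117960236 had 6.09, 21.8, 4.95 and 21.2 in the same order of lists (shift 2.00). In ADAR, an RNA editing enzyme induced by interferon, the PU.1 region had 6.89, 14.5, 2.83 and 10.6 (shift 1.81). At these 3 regions each value with ATRA was above each value without it.

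The STK17A and ARHGAP25 regions had another pattern. At the intergenic region nearest to STK17A, an apoptosis-related kinase, chr7:43572259-43573260, column 7 was 20.9 with DMSO, 22.2 with ATRA, 1.40 with Corin and 21.1 with the combination, the highest shift of all (3.82). In ARHGAP25, which encodes a GTPase-activating protein of blood cells, chr2:68751603-68752248 had 18.9, 23.5, 2.55 and 22.0 (shift 3.01). At both regions Corin alone was low and the DMSO list was as high as the lists with ATRA. The strongest summits of the Corin and combination lists were 255 bp apart in ARHGAP25 and 11 bp apart at STK17A. The ITGA6 region, with a shift of 1.77, lay on a raised local background in both lists, at 188 and 126 reads.

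The 10 strong regions with the lowest shift included those near LRRC17, SMIM3, OLA1, AGA, CLVS1, SFR1, UTRN, GDF6 and RFC3, with shifts from -3.39 to -2.70. All 10 held AP-1, against 1 of the 10 highest. The region nearest to LRRC17 but within FBXL13, chr7:102875691-102876427, had 7.68 with DMSO, no peak with ATRA, 19.0 with Corin and 1.94 with the combination. The region chr4:177596028-177596437, at the start of a non-coding transcript with AGA, a lysosomal enzyme gene, as the nearest coding gene 153774 bp away, had 10.0, none, 20.9 and 2.61. In SMIM3, chr5:150789810-150790854 had 20.5, 14.99, 22.4 and 2.40, so ATRA alone left it high and only the combination list was low. The regions in OLA1 (14.8, 6.24, 15.2 and 1.71) and CLVS1 (13.5, 14.9, 15.2 and 1.96) were also lowest with the combination. The strongest summits of the Corin and combination lists were 493 bp apart in SMIM3 and 395 bp in CLVS1, against 2 bp in OLA1. In SMIM3 and CLVS1 the folds of these lists therefore belong to different summits of the region. Of the 10 regions 6 had no peak in the ATRA list and all 10 had one in the DMSO list.

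The DNA at the summits divided the sets. The 200 bp around the summit with the highest −log10 p were scanned for each motif on either strand. AP-1 was found in 63.2% of the lower and 21.4% of the lost regions, in 13.6% of the shared regions that changed less than 2-fold, in 5.45% of the gained and in 4.34% of the higher ones. Over all union regions the share was 14.7%. Among strong lower regions it was 79.6%, and among the 100 strongest lost regions 92.0%. The same letters reversed without complementing, a control for base composition, were in 8.97% of the lower and 4.39% of the little changed regions. In windows of under 45% GC, AP-1 was in 60.6% of the lower and 4.34% of the higher regions, and between 55% and 60% GC in 58.7% and 3.52%.

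PU.1 ran the other way. Its consensus was in 20.5% of the higher and 8.97% of the gained regions, in 6.69% of the little changed ones, and in 3.13% of the lower and 2.00% of the lost ones, with 6.26% over the union. Its reversed letters were in 0.93% to 1.84% of each set. The IRF motif, the site type of interferon regulatory factors, was in 6.09% of the higher, 3.61% of the gained and 1.38% of the lost regions. The lower regions, at 2.58%, were close to the 2.71% of little changed ones and the 2.64% over the union. The C/EBP consensus TTGCNNAA was in 17.9% of the higher and 22.2% of the lower regions, above the 15.6% of little changed ones, and in 12.6% of the gained and 11.2% of the lost regions, below it. RUNX (TGTGGTT) was likewise in 12.7% of the higher and 11.4% of the lower regions, in 9.13% of the little changed ones, and in 7.52% of the gained and 5.82% of the lost ones. The letters CCCCGCCC bound by the KLF and SP factors and the CTCF motif were mostly at regions that did not change. The KLF/SP share was 8.17% of little changed regions, 0.74% of higher and 1.27% of lower ones, and CTCF was at 5.09%, 0.88% and 0.63%.

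**Figure D2:**
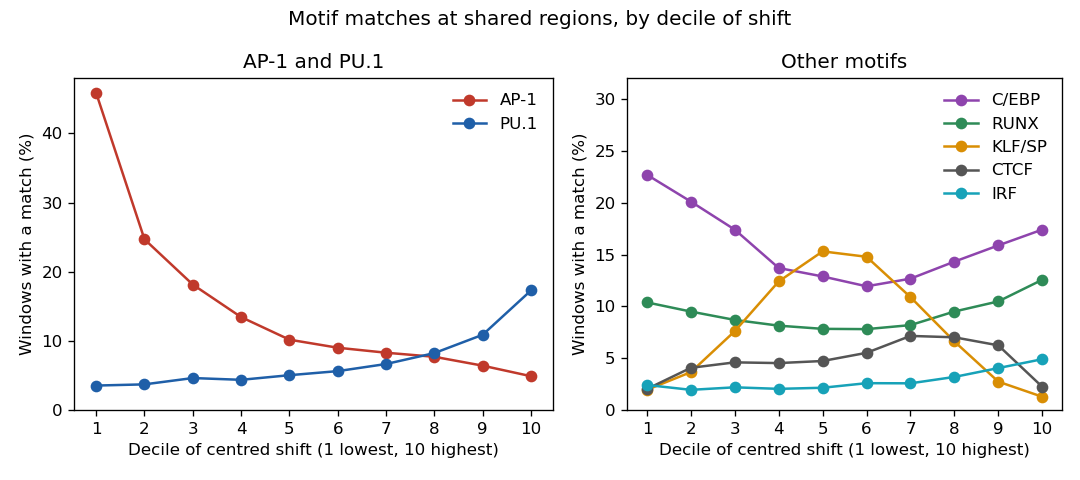
Share of the 200 bp windows at shared regions with a match, in percent, by decile of the centred shift from lowest to highest, for AP-1 and PU.1 (left) and for C/EBP, RUNX, KLF/SP, CTCF and IRF (right). AP-1 goes from 45.8% in the lowest decile to 4.89% in the highest, PU.1 from 3.54% to 17.3%, and KLF/SP peaks in the middle deciles.

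Retinoid receptor repeats were rare in every set. A DR5 was in 46 gained regions (0.235%), 15 lost (0.0589%), 7 higher (0.307%), 0 lower and 58 little changed ones (0.0827%), and in 0.105% of all union regions. The Wilson interval was 0.176% to 0.314% for gained and 0.0357% to 0.0972% for lost regions, so these intervals do not overlap. For lower regions the interval ran up to 0.162%. A DR2 was in 14 higher regions (0.613%, interval 0.366% to 1.03%) against 79 little changed ones (0.113%, interval 0.0904% to 0.140%). It was also in 50 gained (0.256%), 69 lost (0.271%, interval 0.214% to 0.343%) and 4 lower regions (0.169%), and in 0.180% of the union. The DR2 share was thus no higher in gained than in lost regions. A DR1 was in 2 higher regions (0.0876%, interval 0.0240% to 0.319%) and in 0.0713% of little changed ones, too few to show whether it differed. A match is a description of the letters and not of a bound receptor, and nearly all gained and higher regions held neither repeat in the window.

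The shift followed the number and place of AP-1 matches. Shared regions without AP-1 had a median shift of 0.03, those with 1 match -0.25 and those with 2 or more -0.51. At least 2-fold lower were 1.37%, 11.9% and 27.0% of them. With the match centre within 25 bp of the summit the median was -0.37, from 26 to 50 bp it was -0.27, and farther out -0.12. A C or G at the centre of the consensus went with -0.29 and an A or T with -0.19. The longer palindrome TGACGTCA, a site of the CREB and ATF factors, was in 407 shared regions with a median of -0.04. Regions with PU.1 and no AP-1 had a median of 0.25, those with AP-1 and no PU.1 -0.29, those with both -0.11 and those with neither 0.02. In lower regions the nearest AP-1 match was at a median of 20 bp from the summit, in higher regions at 55 bp.

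**Figure D3:**
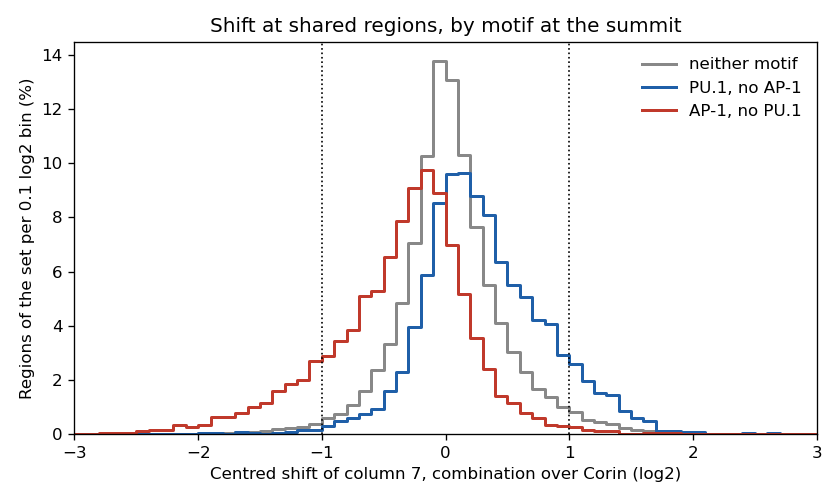
Distribution of the centred shift (log2 of column 7, combination over Corin) at shared regions with neither motif (59110 regions), PU.1 without AP-1 (4558) and AP-1 without PU.1 (10436), as percent of each set per bin of 0.1, with dotted lines at the 2-fold limits. The AP-1 set lies left of the regions with neither motif and the PU.1 set right of it.

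The ATRA and DMSO lists give the same contrast without Corin, from samples that the combination and Corin lists do not contain. The comparison asks whether ATRA moved the same regions in both settings. Of the gained regions 5342 (27.3%) were in the ATRA list and not in the DMSO list, and 1711 (8.75%) the reverse. Of the union regions that were not gained over Corin, 2.3% were in the ATRA list alone. Of the lost regions 7149 (28.1%) were in the DMSO list and not in the ATRA list, and 745 (2.93%) the reverse, against 6.04% of the regions not lost that were in the DMSO list alone. The shares for regions not gained or not lost are not matched for strength. Most of those regions were shared ones, of which 89.3% were in both the ATRA and DMSO lists. The reverse counts come from the same gained and lost regions. In the stronger 50% of the lists the split between the ATRA list alone and the DMSO list alone was clearer. There 231 of 678 gained regions were in the ATRA list alone and 0 in the DMSO list alone, but most, 436, were in both. Of 1208 lost regions there, 611 were in the DMSO list alone, 8 in the ATRA list alone and 329 in both. Of all gained and lost regions, 6343 gained (32.4%) and 12977 lost ones were in neither the ATRA nor the DMSO list.

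In all 4 lists were 66806 regions. The ATRA over DMSO shift was centred on a median of 0.31 (log2), and the most frequent background was 9.12 reads in the ATRA list against 12.8 in the DMSO list. The single folds quoted from the ATRA list are uncentred. Of the regions in all 4 lists, column 7 was at least 2-fold higher with ATRA than with DMSO at 3389 (5.07%) and lower at 1362 (2.04%), and higher with the combination than with Corin at 2123 (3.18%) and lower at 1721 (2.58%). The 2123 regions that were higher on top of Corin had a median ATRA shift over DMSO of 1.04 (quartiles 0.70 and 1.37). It was above 0 at 98.7% of them, at least 2-fold at 1123 (52.9%), and 2-fold the other way at 0. The 1721 that were lower had a median of -0.69 (quartiles -1.15 and -0.26), below 0 at 87.7%, at least 2-fold lower at 558 (32.4%) and 2-fold higher at 7. Across all 66806 regions, Pearson's r between these log2 shifts was 0.62 and Spearman's rank correlation 0.58. Pearson's r was 0.65 in the 22370 regions that were in the strongest 20% of a list, from 0.48 to 0.65 within classes of GC content, 0.56 at promoters and 0.63 elsewhere. Regions are not independent replicates and share their library, depth and base composition, so r is a description.

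**Figure D4:**
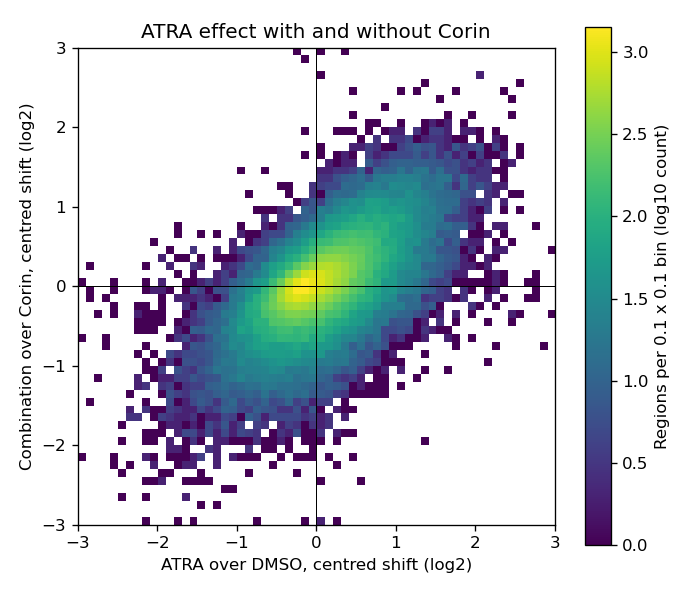
Centred log2 shift of column 7 for ATRA over DMSO (horizontal) and for the combination over Corin (vertical) at the 66806 regions in all 4 lists, with colour for the log10 number of regions per bin of 0.1 by 0.1 and values beyond 3 drawn at the edge. Most regions lie along the diagonal (r = 0.62).

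The motif pattern had the same direction without Corin, with other sizes, except at regions with both AP-1 and PU.1. AP-1 was in 46.8% of the regions that were lower with ATRA than with DMSO and in 10.4% of those that were higher. PU.1 was in 2.79% and 16.7%. Regions with AP-1 and no PU.1 had a median shift of -0.13 for ATRA over DMSO, at the 8827 in all 4 lists. For the combination over Corin it was -0.29, at all 10436 shared ones, so the sets differ. At the same 9450 regions with AP-1 in all 4 lists, with or without PU.1, the medians were -0.12 and -0.24. Regions with PU.1 and no AP-1 had a median of 0.25 in both comparisons, at 4317 and 4558 regions. Regions with both motifs differed in sign, with 0.11 at 623 regions for ATRA over DMSO and -0.11 at 677 for the combination over Corin. Whether the AP-1 medians, or those with both motifs, differ beyond the spread between cultures was not tested, as there were no replicate values.

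The genes around changed regions were read from lists of known function, counting every region within 50 kb of a gene. Around all protein-coding genes 15.7% of 100548 regions were gained, 20.6% lost, 1.94% higher and 1.77% lower. Around 19 classical ATRA targets 64 of 306 regions (20.9%) were gained, 28 (9.15%) lost, 6 higher and 6 lower. Many of the gained ones lay at 2 genes, TGM2 with 12 and DHRS3 with 10. Around 16 genes of retinoid synthesis, transport and breakdown 49 of 214 (22.9%) were gained, 42 (19.6%) lost, 6 higher and 2 lower. DHRS3 is in both lists, so its 10 gained regions count in each. Around 10 retinoid receptors and cofactors 33 of 184 were gained and 33 lost, 4 were higher and 3 lower. These counts use the lists as deposited, and the balance of gained to lost over all regions turns with list length.

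**Figure D5:**
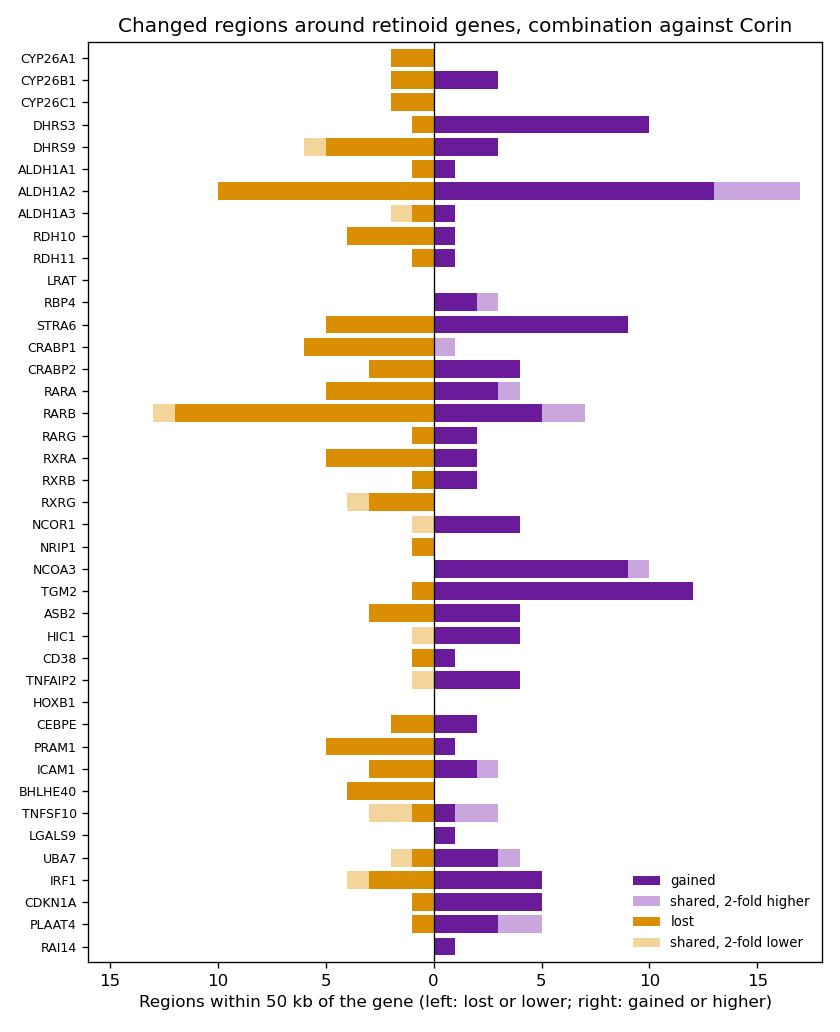
Number of regions within 50 kb of the retinoid genes shown that were gained or at least 2-fold higher (to the right) and lost or at least 2-fold lower (to the left) with the combination against Corin. TGM2, DHRS3 and NCOA3 have bars almost wholly to the right, RARB and ALDH1A2 have long bars on both sides, and LRAT and HOXB1 have none.

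Among receptors, RARB stood out by a change at its own promoter. RARB encodes retinoic acid receptor beta, whose promoter with its DR5 is a textbook ATRA response element. The region chr3:25427136-25428831 had a fold of 6.23 with DMSO, 12.3 with ATRA, 3.54 with Corin and 11.8 with the combination, a shift of 1.64. It was high in both lists with ATRA. The combination list covered 1696 bp there with 5 peaks and the Corin list 308 bp with 1 peak. Its −log10 p was 456 against 14.1. A region with AP-1 at 9284 bp from the nearest RARB start and outside the gene, chr3:24678103-24678927, went the other way, with 16.3, 7.92, 16.8 and 4.98 (shift -1.86). In all, 5 of 26 regions around RARB were gained, 12 lost, 2 higher and 1 lower. RARA had 1 higher and no lower region of 23, with 3 gained and 5 lost, and RXRG, a partner receptor, had 1 lower region with AP-1 (8.53, 3.36, 11.3 and 4.84). NCOA3 had 9 gained and 0 lost of 22, with a second strong gained region, chr20:47576527-47577175 (14.9 with ATRA, 13.5 with the combination and no peak without ATRA). The corepressor gene NCOR1 had 4 gained, 0 lost and 1 lower region. RARG had 2 gained and 1 lost, RXRA 2 and 5, RXRB 2 and 1, and the ligand-dependent corepressor gene NRIP1 0 and 1.

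Among the enzymes, DHRS3, which returns retinaldehyde to retinol and limits retinoic acid supply, had 10 gained and 1 lost of 23 regions. ALDH1A2 had 13 gained, 10 lost, 4 higher and 0 lower of 57, which includes a second higher region, chr15:58526218-58527169, with 10.0, 17.1, 4.44 and 12.5 (shift 1.40). DHRS9, a retinol dehydrogenase, had a lower region upstream, chr2:169034250-169034850, with 14.6, 7.48, 10.1 and 3.67 (shift -1.56). CRABP1, a carrier of retinoic acid in the cytoplasm, had 6 lost regions and 1 higher one, with 7.66, 17.2, 5.03 and 13.8 (shift 1.35). Of the others, STRA6, a membrane receptor of retinol transport, had 9 gained and 5 lost of 17, with none in the stronger 50% of its list. RBP4, the retinol carrier of plasma, had 2 gained, 0 lost and 1 higher, and CRABP2, which delivers retinoic acid to RARs, 4 gained and 3 lost. RDH10, which makes retinaldehyde, had 1 gained and 4 lost, CYP26B1 3 and 2, CYP26C1 0 and 2, and RDH11, ALDH1A1 and ALDH1A3 1 and 1 each. LRAT had no changed region. CYP26A1, the main enzyme of retinoic acid breakdown, had 0 gained and 2 lost regions within 50 kb. The gained DR5 region printed above lay 76609 bp from its start, farther than this limit, and had folds of 12.3 with ATRA and 11.4 with the combination and no peak with DMSO or Corin.

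Among the targets, TGM2, a transglutaminase strongly linked to ATRA-treated myeloid cells, had 12 gained and 1 lost of 25 regions, and 9 of the 12 were in the ATRA list and not in the DMSO list. That share varied between retinoid genes. It was 4 of 5 at IRF1 and 3 of 4 at HIC1, but 5 of 10 at DHRS3, 1 of 13 at ALDH1A2 and 0 of 9 at STRA6. The strongest gained region of TGM2, chr20:38182104-38183032, had a fold of 5.21 with ATRA and 5.64 with the combination and no peak with DMSO or Corin. Column 7 and the pileup differed in sign at its shared regions. Their median shift was -0.47, while their solved pileup was higher by 0.96 and their local background by 1.40 on the log2 scale, so the direction turns with the measure. The same held at DHRS3 (-0.19 for column 7, 0.61 for pileup and 0.95 for background) and at HIC1, a repressor gene (-0.27, 0.53 and 1.001), where 4 regions were gained and 0 lost. TNFSF10, which encodes the death ligand TRAIL, had 2 higher and 2 lower regions, and in the strongest lower one, with AP-1, column 7 was 13.7 with DMSO, absent with ATRA, 18.3 with Corin and 3.75 with the combination.

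CDKN1A, the cyclin-dependent kinase inhibitor p21, had 5 gained and 1 lost, and IRF1, an interferon-response factor, 5 and 3 with 1 lower region. PLAAT4, known as a retinoid-induced gene, had 3 gained, 1 lost and 2 higher, and UBA7, the activating enzyme of ISG15 conjugation, 3 gained, 1 lost, 1 higher and 1 lower. The counts of gained and lost regions were 4 and 3 for ASB2, 4 and 0 for TNFAIP2, 2 and 2 for CEBPE, 2 and 3 for ICAM1, 1 and 1 for CD38, 1 and 5 for PRAM1, 1 and 0 for LGALS9 and RAI14, 0 and 4 for BHLHE40 and 0 and 0 for HOXB1. Near CD38, a surface enzyme long used as a marker of the ATRA response, the gained region chr4:15765874-15766663 had 4.57 with DMSO, 10.2 with ATRA and 8.10 with the combination.

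Around 30 myeloid differentiation genes 49 of 389 regions (12.6%) were gained, 56 (14.4%) lost, 3 higher and 2 lower, below the share around all genes in each class. Single regions nevertheless differed. In CYBB, the oxidase subunit of phagocytes, a gained region chrX:37812161-37812613 had 9.59 with ATRA and 8.24 with the combination and no peak without ATRA. A gained region in an intron of S100A12 had 8.45 and 4.99, also with no peak without ATRA. It lay within 50 kb of S100A8 and S100A9, which encode calcium-binding proteins of myeloid cells. A gained region near CD14, a co-receptor for bacterial lipid, had no peak with DMSO, 7.32 with ATRA and 5.70 with the combination. Another in CD33, a sialic acid receptor, had 2.95, 8.58 and 5.61. These folds are uncentred, and the median over all shared regions was 11.6 with ATRA and 7.86 with the combination. Which of the 2 lists was higher at these regions was therefore not read. A lost AP-1 region near TLR4, the receptor for that lipid, had 7.48 with DMSO and 6.72 with Corin and none with ATRA. A lost AP-1 region within HMGXB3 had 2.97 with DMSO and 9.50 with Corin and none in either list with ATRA. It lay 91 kb from the start of CSF1R, the receptor of macrophage colony-stimulating factor.

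The AP-1 genes themselves showed no one-sided change, with 33 of 254 regions gained, 33 lost, 3 higher and 3 lower around 18 genes. FOSL2 had changes in both directions. Its PU.1 region chr2:28423738-28424541 was higher (10.1, 23.6, 6.90 and 17.1 in the order DMSO, ATRA, Corin, combination), while a region at chr2:28445756-28446243 was lost (3.34, none, 8.31 and none). Near BATF, an AP-1 partner, an AP-1 region was lower (7.87, 3.88, 10.2 and 3.97).

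Around 16 stem cell and leukaemia factor genes 58 of 354 regions were gained and 58 lost, 8 were higher and 8 lower. RUNX1, a master regulator of blood formation, was the nearest coding gene to 6 higher regions, more than any other gene, and also to 4 lower ones, of 87. Its lower intronic regions chr21:34967423-34968239 (8.63, 3.29, 12.9 and 5.70) and chr21:35924566-35925916 (12.6, 9.81, 18.1 and 9.50) both held AP-1. Its gained region chr21:35737542-35738789 had 3.62 with DMSO, 18.8 with ATRA and 9.31 with the combination. At FLT3, a growth factor receptor of progenitors, an AP-1 region was lost (4.57 with DMSO and 8.84 with Corin, none with ATRA). Over all genes, 1912 had at least 1 higher region nearest to them, 1886 a lower one and 443 both. TRIB2, a pseudokinase tied to myeloid leukaemia, was nearest to 6 lower and 0 higher of 53 regions, and TIAM1, a Rac activator, to 5 and 0 of 32. Over the union 2364 of 119781 regions were lower. Both genes were picked for their many lower regions, and the regions nearest to TRIB2 lay a median of 224 kb from a coding start.

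Around 20 interferon-stimulated genes 29 of 200 regions were gained, 30 lost, 2 higher and 2 lower. A gained region near IFIT1, within IFIT3 and LIPA, had 2.46 with DMSO, 20.2 with ATRA and 9.98 with the combination. Another near OAS1, within RPH3A, had none, 7.08 and 8.73. Both were higher in the lists with ATRA. At the promoter of BATF2, an interferon-inducible factor, a region with a DR5 was higher, with 3.84, 12.2, 3.11 and 11.2 (shift 1.75).

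Around 20 genes of the cell cycle and cell death 47 of 338 regions (13.9%) were gained, 71 (21.0%) lost, 6 higher and 4 lower. BCL2, the inhibitor of apoptosis, had an AP-1 region 61 bp from a coding start that was lower, with 11.3, 2.77, 20.6 and 8.56 in the order DMSO, ATRA, Corin, combination. Of 33 regions around it 12 were lost and 3 gained. A lost AP-1 region near CDKN2B, a cyclin-dependent kinase inhibitor, had 6.94, 2.75 and 6.70 with DMSO, ATRA and Corin. A lost region near BCL2A1, another survival gene, had 3.51 with DMSO and 9.97 with Corin. Around 16 genes of the CoREST complex, the target of Corin, 42 of 279 regions were gained, 49 lost, 5 higher and 0 lower. Around 8 genes of the CBP and p300 coactivators, which include NCOA3, 24 of 125 were gained, 22 lost, 7 higher and 2 lower.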

How the data were processed

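ATAC-seq of U-937 cells was read from the peak list of each group (DMSO, ATRA, Corin, combination), 1 list from 2 samples. Cutadapt, Bowtie2, SAMtools, Picard and MACS2 and the build hg38 are named in the submitters' processing notes, which give no versions here. Within each deposited list, column 7 is a fold, the ratio of a peak to its local background. The p and q columns of the deposited lists are −log10 values, and the deposited score is a capped multiple of the p column and was not used. These values are the authors' and were used only to describe, rank or filter, and to set 2 lists side by side at the same region. No per-sample columns were present, so 0 were left out.

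Peaks were merged within a list, and regions overlapping by at least 1 bp were taken as the same. A region with several peaks took the values of the peak with the highest −log10 p. The shift is log2 of column 7, centred on its median. Each peak's p and fold were inverted, under a Poisson model, to give its pileup and background in reads. Genes and places come from GENCODE 44, and a promoter is within 1 kb of a start. Sequences come from hg38. Scripts ran in Python 3.11.15 with numpy 2.4.6, pandas 2.3.3 and pysam 0.24.0, and were tested on simulated data. Shares carry 95% Wilson intervals. Depth per sample is unknown.

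The comparison, gene lists and motifs were chosen with earlier results of these data known. Named were the 10 strongest gained and lost regions, the 10 highest and lowest strong shared regions, the genes with most regions, every retinoid gene, list genes with a gained or lost region in the stronger 50% of its list or a strong shared region past 2-fold within 50 kb, and regions with a retinoid repeat. Of regions the rule selects, several are given by gene name only. Several genes of the lists and of the rule are not reported here. Alternatives were stricter p and q limits, other merging, overlap, list length, fold limit and centring, the highest peak, the pileup, nearby summits and removal of doubtful or high-background peaks.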

Additional observations from a re-analysis of the deposited data

Results flagged for a closer look

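At the shared region nearest to STK17A the centred shifts differed in sign. The shift was 3.82 for the combination over Corin and -0.22 for ATRA over DMSO. The latter lies within the SD of 0.53 of that shift over regions and follows from centring on 0.31, since the uncentred fold was 20.9 with DMSO and 22.2 with ATRA. With 1 list a group, the difference was not tested. Its column 7 was high with DMSO, ATRA and the combination and 1.40 with Corin, where the peak had a −log10 p of 2.32. Of regions at least 2-fold changed in both comparisons, 0 were higher over Corin and lower over DMSO, and 7 were lower over Corin and higher over DMSO.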

How the results depend on the processing

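No paired analysis was possible because each group had 1 pooled list, and for the same reason no replicate could be left out. Of 62 recomputed counts of gained, lost, higher and lower regions and of those shared with ATRA over DMSO, 56 stayed within 1.5 times the count reported. With peaks at a −log10 q of at least 5, lost regions numbered 14842 and lost regions that ATRA also lost from DMSO 4173. With lists of equal length the latter numbered 4654. With a 1.5-fold limit 7269 shared regions were higher and 6711 lower, and with the solved pileup 4935 were lower. The cause was not tested, other than that the limit of 1.5 takes in more regions by construction. Gained regions ranged from 15214 to 24075. AP-1 was in 47.8% to 65.1% of lower regions and PU.1 in 16.7% to 21.8% of higher ones over all alternatives, the windows of 100 bp included, which were added after seeing the data. The 20 named shared regions kept the sign of their shift in each of 5 forms. They were chosen for extreme shifts, so the forms that only change the centring could hardly reverse them. Removing peaks on high background, also added after seeing the data, left 5 of the 10 named gained and 5 of the 10 named lost regions. Weak regions lie near the limit of calling, which depends on a depth that is unknown here.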
